A study of Mus musculus with 12 samples.

Results

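Complement genes were followed in whole kidneys of a mouse model of polycystic kidney disease. The 9 genes were chosen by name as components, regulators and the C3a receptor of the complement system, without C1q: C1ra, C2, C4b, C3, Cfb, Cfp, Cfi, Cd55 and C3ar1. The choice was made with earlier results of these data known, so their counts beside the share of all genes are descriptive only. All 9 were rows among the 54532 genes of the count table, and all 9 were among the 24642 genes that passed the cutoff on low counts and were tested. RNA-seq counts were available for 12 C57BL/6 mice (J substrain by the study's methods) aged 18 days, in 4 groups of 3. Every mouse carried one RC allele of Pkd1, a hypomorphic missense allele, beside a floxed Pkd1 allele. Noncystic mice had no Cre and are called Pkd1 RC/+. Cystic mice also carried Ksp-Cre, which deletes the floxed allele in kidney tubule cells, and are called Pkd1 RC/-. Within each class 3 mice were Pkd2+/+ (mice 19, 20 and 21 noncystic; 25, 26 and 27 cystic) and 3 were Pkd2 Δ17/Δ17 (mice 22, 23 and 24 noncystic; 28, 29 and 30 cystic). The Δ17 allele is a germline CRISPR deletion of the miR-17 motif in the Pkd2 3′-UTR. The presence of Ksp-Cre and of cysts cannot be told apart in this design, because no noncystic mouse had Cre.

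Complement is a cascade of plasma proteases and their substrates that marks surfaces for removal and releases peptides that attract leukocytes. The classical route starts at C1q with its proteases C1r and C1s, which act on C4 and C2. The alternative route uses factor B and factor D and is stabilised by properdin. All routes meet at C3, and inhibitors such as factor I and CD55 hold the cascade back. The liver makes most plasma complement, while tubule cells and macrophages of the kidney can make several components locally.

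C1r, C2, factor B and factor I are serine proteases, and C3 and C4 carry an internal thioester with which they attach to surfaces. The coding sequence around these sites is shown because it defines what the counted genes are and how far they resemble their near copies. Each line except that of C4a gives 30 coding bases from the GENCODE M21 annotation of GRCm38, 5′ to 3′. In these lines the 15 capitals are the 5 codons centred on the active-site serine or forming the thioester motif. C4a is annotated as a processed transcript, not as protein coding. Its line gives the 30 transcript bases closest to the C4b window. The capitals of C4a mark the same positions and were not matched to the motif.
C1ra: tgccaaGGGGACAGTGGGGGTgtttttgca
C1rb: tgccagGGGGACAGTGGGGGTgtttttgca
C2: tgcaaaGGAGAATCTGGGGGAgccgttttc
Cfb: tgcaaaGGAGATTCCGGGGGCcctctcatt
Cfi: tgcaaaGGAGACTCCGGAGGCcccttggtc
C3: cccgcaGGCTGTGGGGAACAGaacatgatt
C4b: ccccagGGCTGTGCAGAGCAAaccatgatc
C4a: tcccggAGCTGCGCAGAGCAAaccatgatc
The windows of C1ra (chr6:124522810-124522839) and of Cfi (chr3:129874947-129874976) lie on the forward strand in the last exon, exon 11 of 11 and exon 14 of 14. Those of C3 (chr17:57215835-57215864) and C4b (chr17:34734472-34734501) lie on the reverse strand, each in exon 24 of 41. The windows of C2 and Cfb are split over exons 16 and 17 of 18. Among the proteases, Cfb and Cfi matched at 23 of 30 bases, C2 and Cfi at 22, and C2 and Cfb at 21, whereas C1ra matched C2 at 18. The thioester windows of C4b and C3 matched at 21 of 30 bases.

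Near copies limit how exactly some of these genes can be counted. C1ra and C1rb (window at chr6:124580856-124580885) differed at 1 of 30 bases, and C4b and C4a (the closest window, chr17:34815132-34815161) at 4 of 30. Over whole transcripts, 26.271% of the 150-base windows of C1ra occurred unchanged in C1rb, 8.26% of those of C4b in C4a and 2.245% of those of Cd55 in Cd55b. C1rb did not exceed 0.218 CPM (counts scaled to the TMM-corrected library size) in any mouse, C4a ran from 0.391 to 2.55 CPM, and Cd55b had no count in any mouse. C2 and Cfb are neighbours on the reverse strand of chromosome 17 (34862604 to 34898265 and 34856374 to 34862518), close to C4b (34728380 to 34743882). A read-through gene model on the same strand, Gm20547, covers 79.504% of the exon bases of Cfb and 42.769% of those of C2. Gm20547 had no count in any mouse, and reads in exons shared by gene models are assigned to neither by the counter used. C2 also shares 161 exon bases with Zbtb12 on the opposite strand. No other gene covers 579 exon bases of Cfb and 2055 of C2, and their values are uncertain to that extent. Whether reads in bases shared with the opposite strand were left out depends on the strand setting of the counting, which was not given in the sources used here. Cd55 (chromosome 1, 130439027 to 130462744) shares 102 exon bases with an antisense gene and is open to the same uncertainty. C1ra (chromosome 6, 124512405 to 124523443), C3 (chromosome 17, 57203970 to 57228136), Cfi (chromosome 3, 129835884 to 129875332), C3ar1 (chromosome 6, 122847138 to 122856161) and Cfp (chromosome X, 20925454 to 20931555) shared no exon base with another gene.

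The libraries held 18800307 to 24453033 counts per mouse, and the counts behind a value of the 9 genes ran from 37 for C3ar1 to 4025 for C3. The kidney identity of the samples was plain: the proximal tubule transporter Slc34a1 stood between 1263 and 5209 CPM in every mouse. Libraries 25 and 30 stood apart in carrying liver transcripts. Alb, the albumin gene of hepatocytes, was at 355.1 CPM in mouse 25 and 91.2 CPM in mouse 30, at 16.4 CPM in mouse 19, and at no more than 1.61 CPM in the other 9 mice. Apoa1 followed at 67.8, 15.6 and 1.82 CPM in mice 25, 30 and 19. Liver makes C3, C4b and other complement genes, so some of the results below, not all, are also given without mice 25 and 30. Mouse 30 also had the highest summed macrophage and tubule injury markers of its group, so leaving it out removes these as well. In whole tissue, fewer cells of a type and less RNA per cell cannot be told apart.

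Compared per kilobase of exon not shared with other genes, the order of the genes differed between noncystic and cystic kidneys. In noncystic Pkd2+/+ kidneys Cfb stood highest at 15.8 ± 7.11 CPM per kb (SD, n = 3), followed by C1ra at 9.06 ± 1.23 and C3 at 5.86 ± 2.53. C4b was lowest at 0.431 ± 0.13 CPM per kb. The ranges of C1ra and C3, of C3 and Cfp, and of Cfp and Cfi overlapped over the 3 mice, and those of the other neighbours in the order did not. In cystic Pkd2+/+ kidneys C3 stood first at 25.3 ± 4.33 CPM per kb (SD, n = 3), above every value of Cfi (12.4 ± 1.11) and Cfb (11.9 ± 1.34), which overlapped each other. In cystic Pkd2 Δ17/Δ17 kidneys C3 took the fourth place at 6.03 ± 4.5 CPM per kb (SD, n = 3), and its range overlapped those of C1ra and Cfp, its neighbours. The level of Cfb was computed over its 579 unshared bases. Stretches shared with near copies were not taken out of any length, although 26.271% of the 150-base windows of C1ra also occur in C1rb. The level of C1ra and its place in the order are uncertain to that extent.

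Between noncystic and cystic Pkd2+/+ kidneys, C4b, C3, Cfi, C3ar1 and Cfp were higher in cystic kidneys, and no member was called lower. The comparison asks what disease does to these genes while the miR-17 motif of Pkd2 is intact. Of the 9 genes, 5 passed the threshold of an adjusted p under 0.05 (quasi-likelihood test in edgeR, adjusted by Benjamini-Hochberg over all genes tested). Among all 24642 genes 31.1% passed, 16.9% higher and 14.2% lower. The median log2 fold change was 0.82 over the 9 genes and 0.02 over all genes tested. Summed over the 9 genes, the level was 91.6 to 120.1 CPM in noncystic and 219.8 to 276.1 CPM in cystic Pkd2+/+ kidneys.

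**Figure D1:**
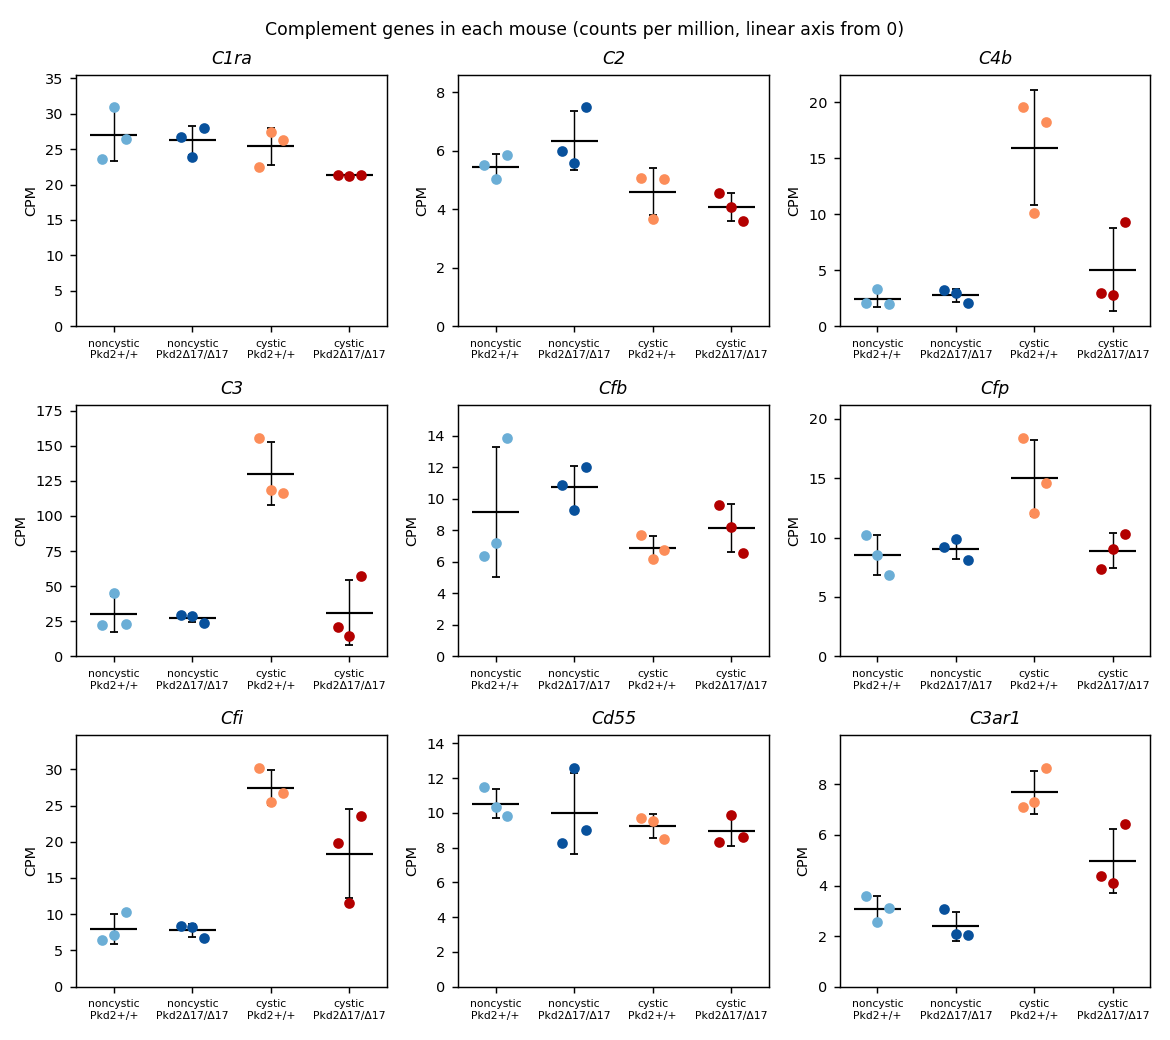
CPM of each of the 9 complement genes (vertical axis, linear from 0) in the 4 groups of 3 mice; points are mice, horizontal lines are group means and bars are SD. C3, C4b, Cfi, C3ar1 and Cfp lie higher in all 3 cystic Pkd2+/+ mice than in the noncystic Pkd2+/+ mice, while C1ra, C2 and Cfb overlap between these groups.

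C3, the component on which all routes converge, stood at 22.3, 45.2 and 22.9 CPM in noncystic Pkd2+/+ mice 19, 20 and 21, and at 155.8, 118.1 and 116.5 CPM in cystic Pkd2+/+ mice 25, 26 and 27. The groups did not overlap, and mouse 20 was the highest of the noncystic mice. The log2 fold change of 2.12 (SE 0.36, 4.33-fold) had an adjusted p = 0.000239. Mice 26 and 27, with Alb at 1.03 and 1.18 CPM, lay below mouse 25 for C3 but above all noncystic mice. Without mice 25 and 30 the log2 fold change of C3 was 1.97, with an adjusted p = 1.08e-06. C3 made up 22.6 to 37.6% of the counts of the 9 genes in noncystic Pkd2+/+ mice and 50.4 to 56.4% in cystic Pkd2+/+ mice.

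C4b encodes C4, the thioester protein of the classical and lectin routes. It stood at 2.08, 3.31 and 1.98 CPM in the noncystic Pkd2+/+ mice and at 19.6, 10.1 and 18.2 CPM in the cystic Pkd2+/+ mice. Mouse 26 was the lowest of the cystic mice and still lay above every noncystic mouse. The log2 fold change was 2.70 (SE 0.40, 6.52-fold), the largest of the 9 genes in this comparison, with an adjusted p = 5.78e-05. Without mice 25 and 30 it was 2.53 (adjusted p = 8.92e-07). The near copy C4a did not pass (log2 fold change -0.50, adjusted p = 0.530).

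Cfi encodes factor I, a soluble protease that inactivates the cleaved forms of C3 and C4. Its values were 6.39, 7.18 and 10.3 CPM in noncystic and 30.2, 25.5 and 26.7 CPM in cystic Pkd2+/+ mice. The cystic mice were tightly grouped and lay above all noncystic mice. This was a log2 fold change of 1.79 (SE 0.22), with an adjusted p = 8.31e-06.

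C3ar1 encodes the receptor for the peptide C3a and is expressed by macrophages and other leukocytes. It stood at 3.58, 2.57 and 3.10 CPM in noncystic and at 7.12, 7.29 and 8.66 CPM in cystic Pkd2+/+ mice, without overlap. Its log2 fold change was 1.31 (SE 0.22), with an adjusted p = 0.000218.

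Cfp encodes properdin, the positive regulator of the alternative route. It stood at 10.2, 8.50 and 6.87 CPM in noncystic and at 18.4, 12.04 and 14.6 CPM in cystic Pkd2+/+ mice. The groups did not overlap, and mice 19 and 26 lay closest to each other across them. For Cfp the log2 fold change was 0.82 (SE 0.18), with an adjusted p = 0.00236, and without mice 25 and 30 it was 0.64 (adjusted p = 0.0107).

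The remaining 4 genes did not pass. C1ra, a protease of the C1 complex, stood at 23.6, 30.9 and 26.5 CPM in noncystic and at 22.5, 27.5 and 26.3 CPM in cystic Pkd2+/+ mice, with overlapping groups (log2 fold change -0.09, adjusted p = 0.612). C2, the protease subunit of the classical C3 convertase, stood at 5.50, 5.02 and 5.85 CPM against 5.07, 3.67 and 5.04 CPM (log2 fold change -0.25, adjusted p = 0.371). Cfb, its counterpart in the alternative route, stood at 6.39, 7.18 and 13.9 CPM against 7.70, 6.17 and 6.78 CPM. Mouse 21 alone was high for Cfb, and the log2 fold change of -0.41 (adjusted p = 0.228) became 0.0057 without it. Cd55, the membrane inhibitor that speeds the decay of convertases, stood at 11.5, 10.3 and 9.82 CPM against 9.72, 9.55 and 8.47 CPM. Every cystic mouse lay just below every noncystic mouse for Cd55, but its log2 fold change of -0.19 did not pass (adjusted p = 0.423). By overlap alone, 5 of the 9 genes were higher and 1 was lower without overlap, where 41.7% of all genes tested had groups that did not overlap (22% higher and 19.7% lower).

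In cystic kidneys, deletion of the miR-17 motif from Pkd2 went with lower C3, C4b and Cfp. This comparison asks how the genes differ when Pkd2 lacks the motif while Pkd1 disease is present. Of the 9 genes, 3 were called lower and 0 higher, against 2.23% of all genes tested (1.19% higher and 1.04% lower). At an unadjusted p under 0.05, 6 of the 9 genes were lower, where 14.3% of all genes passed that limit and 7.17% were lower. The median log2 fold change was -0.58 over the 9 genes and 0.0008 over all genes. The sum of the 9 genes was 85.3 to 147.3 CPM in cystic Pkd2 Δ17/Δ17 kidneys, with mouse 30 the highest. These mice are compared with the same cystic Pkd2+/+ mice as above, so the fold changes of the comparisons share those samples.

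C3 stood at 21.1, 14.5 and 57.4 CPM in cystic Pkd2 Δ17/Δ17 mice 28, 29 and 30, all below the lowest cystic Pkd2+/+ mouse at 116.5 CPM. Mice 28 and 29 lay below all noncystic mice, whereas mouse 30 lay above them. The log2 fold change was -2.07 (SE 0.36, 4.20-fold lower), with an adjusted p = 0.00820 in the edgeR test. Without mouse 28 it was -1.85 and did not pass (adjusted p = 0.0577). Without mouse 30 it was -2.87 (adjusted p = 0.000122), and without mice 25 and 30 it was -2.72 (adjusted p = 1.13e-05).

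C4b stood at 2.98, 2.79 and 9.33 CPM in cystic Pkd2 Δ17/Δ17 mice 28, 29 and 30. Mice 28 and 29 were within the noncystic range, and mouse 30 was just below mouse 26, the lowest cystic Pkd2+/+ mouse at 10.1 CPM. The log2 fold change was -1.66 (SE 0.37, 3.17-fold lower), with an adjusted p = 0.0293. This call was lost without mouse 27 (adjusted p = 0.112), mouse 28 (0.158) or mouse 29 (0.137), and in a fit of the compared groups alone (adjusted p = 0.101). Without mouse 30 the C4b value was -2.47 (adjusted p = 0.000788), and without mice 25 and 30 it was -2.29 (adjusted p = 0.000325).

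Cfp stood at 7.36, 9.05 and 10.3 CPM in cystic Pkd2 Δ17/Δ17 mice, below every cystic Pkd2+/+ mouse and within the noncystic range or close above it. Its log2 fold change was -0.75 (SE 0.18), with an adjusted p = 0.0402, near the threshold. The Cfp call was lost when any of mice 22, 24, 25, 27, 28 or 29 was left out (adjusted p from 0.0505 to 0.213), without mice 25 and 30 (adjusted p = 0.0540) and with limma-trend (adjusted p = 0.0570). It was also lost on library totals (adjusted p = 0.0512), in a fit of the compared groups alone (0.0931) and with Xist as a covariate (0.0682).

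With single mice left out, the count of 3 genes called fell to 0 without mouse 28 and to 1 without mouse 27 or mouse 29. Without mice 25 and 30 it was 3, with C3ar1 called in place of Cfp.

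Cfi and C3ar1 did not pass in this comparison, although neither overlapped between the cystic groups. Cfi stood at 19.9, 11.6 and 23.6 CPM in the cystic Pkd2 Δ17/Δ17 mice, with mouse 29 the lowest and all 3 below the Pkd2+/+ mice (log2 fold change -0.58, adjusted p = 0.179). C3ar1 stood at 4.37, 4.11 and 6.45 CPM (log2 fold change -0.63, adjusted p = 0.163). Without mice 25 and 30 the value of C3ar1 was -0.91, with an adjusted p = 0.0401. C1ra was at 21.3, 21.2 and 21.4 CPM, also below every cystic Pkd2+/+ mouse, with a log2 fold change of -0.25 (adjusted p = 0.301). C2 stood at 4.57, 4.06 and 3.61 CPM, Cfb at 9.61, 8.22 and 6.59 CPM and Cd55 at 8.32, 9.88 and 8.61 CPM, each overlapping the cystic Pkd2+/+ mice. Without overlap, 6 of the 9 genes were lower and 0 higher, where 19% of all genes tested were separate in that way (8.79% higher and 10.2% lower).

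**Figure D2:**
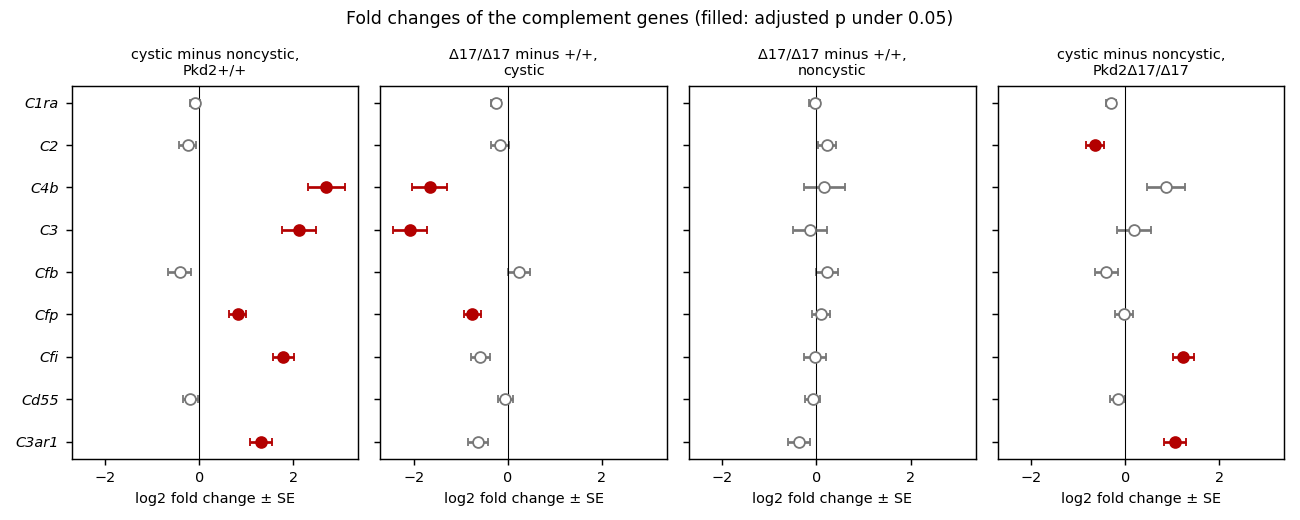
Log2 fold change with its standard error (horizontal axis) of each of the 9 genes in 4 comparisons, from edgeR's quasi-likelihood fit; filled points had an adjusted p under 0.05. C3, C4b and Cfp are filled in the comparison by disease with Pkd2+/+ and, in the opposite direction, in the comparison by motif deletion in cystic kidneys, while no point is filled for the deletion in noncystic kidneys.

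In noncystic kidneys the motif deletion moved none of the 9 genes past the threshold. C3 stood at 29.4, 28.5 and 23.8 CPM in noncystic Pkd2 Δ17/Δ17 mice 22, 23 and 24. C4b was at 3.21, 2.95 and 2.09 CPM, Cfi at 8.34, 8.29 and 6.77 CPM, C3ar1 at 3.05, 2.07 and 2.04 CPM and Cfp at 9.21, 9.87 and 8.14 CPM. C1ra was at 26.8, 23.95 and 28 CPM, C2 at 5.99, 5.56 and 7.48 CPM, Cfb at 10.9, 9.27 and 11.99 CPM and Cd55 at 8.28, 12.6 and 9.02 CPM. All 9 genes overlapped between the noncystic groups, where 10.8% of all genes tested did not (5.69% higher and 5.09% lower). The log2 fold changes ran from -0.37 for C3ar1 to 0.23 for Cfb. The count of 0 in edgeR's test was also 0 at an unadjusted p under 0.05, which 6.31% of all genes passed, and 0 with limma-trend and with DESeq2. Among all genes 1 passed, which is 0.00406%.

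Between noncystic and cystic kidneys that both lacked the motif, Cfi and C3ar1 were higher and C2 was lower in cystic kidneys. These were 3 of the 9 genes, where 23% of all genes tested passed (12.8% higher and 10.2% lower). Cfi rose by a log2 fold change of 1.23 (SE 0.22, adjusted p = 0.000519) and C3ar1 by 1.06 (SE 0.23, adjusted p = 0.00284). Neither overlapped between the groups, and C1ra and C2 lay lower without overlap, where 37.9% of all genes tested did not overlap (20.2% higher and 17.7% lower). Both also passed without mice 25 and 30, at 1.01 and 0.83 (adjusted p = 0.00199 and 0.0201). C2 differed by -0.64 (SE 0.19, adjusted p = 0.0216). The C2 call was lost without mouse 24 (adjusted p = 0.118), mouse 29 (0.0614) or mouse 30 (0.0881), and without mice 25 and 30 (0.0820). On library totals it was lost as well, with edgeR (adjusted p = 0.0700) and with limma-trend (0.0735). C1ra had a log2 fold change of -0.30 (adjusted p = 0.0649) and passed without mouse 20 (adjusted p = 0.0433) or mouse 23 (adjusted p = 0.0415). It also passed with DESeq2 (adjusted p = 0.0347), with at least 10 counts in every mouse (0.0318), in a fit of the compared groups alone (0.0443) and with Xist as a covariate (0.0350). C4b, at 0.87 (adjusted p = 0.144), and C3, at 0.19 (adjusted p = 0.784), did not pass, and both rested on mouse 30. Without it C4b was at 0.07 (adjusted p = 0.921) and C3 at -0.62 (adjusted p = 0.120). Cfp was at -0.03, Cfb at -0.40 and Cd55 at -0.16, with adjusted p-values of 0.952, 0.275 and 0.553.

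Whether the motif deletion acted differently in cystic and noncystic kidneys was tested as an interaction. None of the 9 genes passed, where 3 of all genes tested did (0.0122%, with 0.00812% higher and 0.00406% lower). At an unadjusted p under 0.05 there were 3 of the 9, where 8.33% of all genes passed that limit, and the count past the adjusted threshold was 0 with limma-trend and with DESeq2 as well. These 3 were C3 (log2 difference -1.93, SE 0.51, adjusted p = 0.266), C4b (-1.83, SE 0.57, adjusted p = 0.357) and Cfp (-0.84, SE 0.26, adjusted p = 0.361). The result depended on mouse 30. Without it C3 was at -2.73 (adjusted p = 0.00534) and C4b at -2.64 (adjusted p = 0.0187), and without mice 25 and 30 they were at -2.58 (adjusted p = 0.000690) and -2.46 (adjusted p = 0.00843). With all 12 mice, the size of the C3 or C4b change on deletion was therefore not shown to depend on the presence of cysts.

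**Figure D3:**
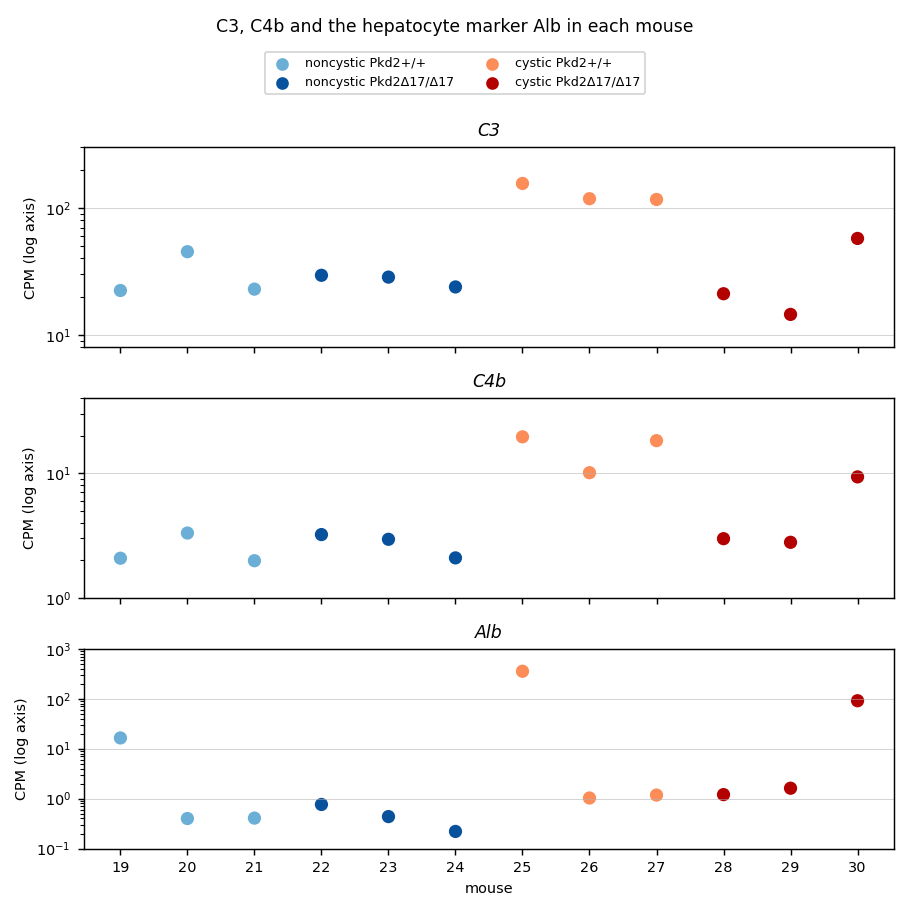
CPM of C3, C4b and the hepatocyte gene Alb (vertical log axes) in each of the 12 mice (horizontal axis), coloured by group. Alb is high in mice 25 and 30 and raised in mouse 19, whereas C3 and C4b are also high in mice 26 and 27, where Alb is at 1.03 and 1.18 CPM.

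Markers of other cell types were measured beside the complement genes. The list of 8 hepatocyte genes summed to 122.8 to 179.0 CPM in noncystic Pkd2+/+, 140.6 to 153.0 in noncystic Pkd2 Δ17/Δ17, 70.9 to 601.1 in cystic Pkd2+/+ and 103.5 to 248.5 CPM in cystic Pkd2 Δ17/Δ17 kidneys. Most of this sum in mice without liver transcripts came from Ttr and Fga, which stood between 26.8 and 147.3 CPM and between 14.0 and 51.2 CPM over all 12 mice. The high C3 and C4b of mice 26 and 27 stood beside near-absent Alb and Apoa1. In mouse 30 C3, C4b and Alb were all the highest of their group, and the part of liver RNA in its C3 and C4b was not tested.

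The list of 10 macrophage genes summed to 190.8 to 209.3 CPM in noncystic Pkd2+/+ and 193.9 to 232.0 CPM in noncystic Pkd2 Δ17/Δ17 kidneys. The macrophage sum was 362.7 to 445.2 CPM in cystic Pkd2+/+ and 293.3 to 360.4 CPM in cystic Pkd2 Δ17/Δ17 kidneys, with mouse 30 highest in the latter group. Between cystic and noncystic Pkd2+/+ kidneys 9 of the 10 genes were higher and Mertk was lower, where 31.1% of all genes tested passed. On deletion in cystic kidneys Cd68, Cd14 and Aif1 were lower by log2 fold changes of -0.63, -0.78 and -1.03, and Mertk was higher by 0.48 (adjusted p = 0.0317, 0.0417, 0.0435 and 0.0170). The calls for Cd68, Cd14 and Aif1 were each lost when 1 of several mice was left out, mice 26, 27, 28 and 29 among them, and that for Mertk without mouse 26, 28 or 29. Those for Cd68, Cd14 and Aif1 were also lost in a fit of the compared groups alone, and those for Cd14 and Aif1 with limma-trend. Lyz2, which encodes lysozyme, stood at 118, 136 and 103 CPM in cystic Pkd2+/+ and at 66.0, 66.9 and 108.7 CPM in cystic Pkd2 Δ17/Δ17 mice, so it too was highest in mouse 30 of its group. Csf1r, the receptor on which macrophages depend, stood at 80.1, 88.0 and 84.8 CPM against 82.6, 82.5 and 83.4 CPM in the same groups, which overlapped (log2 fold change -0.02, adjusted p = 0.927). Lymphocyte genes summed to no more than 13.5 CPM and neutrophil genes to no more than 2.69 CPM in any mouse.

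The 6 tubule injury genes summed to 1263 to 1452 CPM in noncystic Pkd2+/+ and 1278 to 1492 CPM in noncystic Pkd2 Δ17/Δ17 kidneys. Their sum was 2175 to 3051 CPM in cystic Pkd2+/+ and 1441 to 2683 CPM in cystic Pkd2 Δ17/Δ17 kidneys. Most of it was Spp1, at 1207 to 1408, 1217 to 1444, 1901 to 2710 and 1342 to 2480 CPM in the same order. In cystic Pkd2 Δ17/Δ17 mice 28, 29 and 30 the injury sum was 1718, 1441 and 2683 CPM. Only mouse 30 lay within the range of the cystic Pkd2+/+ mice. Leaving out mouse 30 thus removes the highest injury sum of its group along with its liver transcripts. Havcr1, which encodes the injury marker KIM-1, was lower on deletion in cystic kidneys (log2 fold change -1.72, adjusted p = 0.0311), as were Lcn2 (-1.09, adjusted p = 0.0481) and Vcam1 (-1.003, adjusted p = 0.00717). The calls of Havcr1 and Lcn2 were lost without mouse 26, 28 or 29 among others, and that of Vcam1 without mouse 29. Those of Havcr1 and Lcn2 were also lost in a fit of the compared groups alone and with Xist as a covariate. Lcn2 lost its call with DESeq2, on library totals in edgeR and with at least 10 counts in every mouse as well. Vcam1 overlapped between the Pkd2+/+ groups, at 22.01 to 34.79 CPM in noncystic and 26.22 to 34.66 CPM in cystic mice. It stood at 11.93 to 17.45 CPM in cystic Pkd2 Δ17/Δ17 mice. The other 3 injury genes and 6 of the 10 macrophage genes did not pass on deletion in cystic kidneys. In the comparison by disease with the motif deleted, where C3 and C4b did not pass, 9 of the 10 macrophage genes were higher and 1 was lower, and of the 6 injury genes 1 was higher and 1 lower. In that comparison 23% of all genes tested passed. The part of macrophages and of tubule injury in the complement values was not tested.

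The wider complement system was described from a list of 49 further genes, of which 46 could be tested. Fcnb and Cd55b had no count in any mouse. In cystic against noncystic Pkd2+/+ kidneys 18 were higher and 7 lower, where 31.1% of all genes passed (median log2 fold change 0.66, against 0.02 over all genes). All 3 C1q genes, which encode the recognition molecule of the classical route, were higher: C1qa by 1.84, C1qb by 1.87 and C1qc by 1.80 (adjusted p = 1.36e-06, 1.36e-06 and 2.04e-06). Of the 8 receptors 5 were higher and 1 was lower. Itgax, a subunit of complement receptor 4, was higher by 2.14 (adjusted p = 6.03e-05). Of the 8 soluble inhibitors tested 4 were higher and 1 was lower. Clu, which encodes clusterin, an inhibitor of the terminal complex, rose from 258 to 313 CPM in noncystic to 1398 to 1741 CPM in cystic Pkd2+/+ mice (log2 fold change 2.45, adjusted p = 1.21e-07). Cpn1, the catalytic subunit of carboxypeptidase N, which inactivates C3a and C5a, was lower by -1.69 (adjusted p = 2.05e-08), at 67.0 to 79.1 CPM against 223.5 to 261.9 CPM. Colec12, a scavenger receptor with a collectin domain, was lower by -0.39 (adjusted p = 0.00820). This Colec12 call was lost without mouse 27 (adjusted p = 0.0522) and on library totals.

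Of the lectins, Fcna was higher by 2.57 (adjusted p = 0.00501), at low levels of up to 2.36 CPM. Hc, which encodes C5, had a log2 fold change of 4.93 (adjusted p = 0.0146), but mouse 25 alone held 3.41 CPM and no other mouse more than 0.433 CPM. Without mouse 25 Hc was at 1.84 (adjusted p = 0.390), and it was also lost without mouse 20 or mouse 21. Vtn, which encodes vitronectin, had a value of 2.76 (adjusted p = 0.0419), with 15.02 CPM in mouse 25, and stood at -0.59 without it (adjusted p = 0.557). Leaving out any one noncystic mouse also ended the Vtn call. Cfd, the adipocyte-derived factor D of the alternative route, was lower by -2.08 (adjusted p = 0.0143). It stood at 83.3, 224.0 and 115.4 CPM in noncystic and at 27.4, 17.1 and 55.3 CPM in cystic Pkd2+/+ mice, and the call was lost without mouse 20 or mouse 26 (highest adjusted p = 0.0749). The 4 adipocyte genes, chosen after seeing the data, summed to 77.7 to 210.3 CPM and 23.8 to 56.5 CPM in the same groups. In mouse 29, where Cfd was at 2.05 CPM, they summed to 4.50 CPM. Lep, 1 of the 4, went the other way, at 0.62 to 1.32 CPM in noncystic and 4.96 to 9.04 CPM in cystic Pkd2+/+ mice. The part of fat tissue in the Cfd values was not tested.

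On motif deletion in cystic kidneys, 5 of these other complement genes were lower and 2 higher, where 2.23% of all genes passed. C1qa, C1qb and C1qc were lower by log2 fold changes of -0.92, -0.87 and -0.83 (adjusted p = 0.0160, 0.0207 and 0.0273). In cystic Pkd2+/+ mice C1qa stood at 74.8, 119.8 and 108.9 CPM, and in cystic Pkd2 Δ17/Δ17 mice at 45.1, 45.5 and 69.8 CPM. The 3 C1q calls were lost without mouse 27, 28 or 29, and those of C1qb and C1qc also without mouse 26 (highest adjusted p = 0.158). Itgax was lower by -1.28 (adjusted p = 0.0336) and lost its call without mouse 26, 27, 28 or 29 (highest adjusted p = 0.171). Clu was lower by -1.11 (adjusted p = 0.00609) and passed with every single mouse left out (highest adjusted p = 0.0481). In a fit of the compared groups alone the calls of Clu (adjusted p = 0.0553), Itgax (0.0771) and C1qa, C1qb and C1qc (0.0630, 0.0901 and 0.114) were lost. Cpn1 was higher by 0.89 (adjusted p = 0.000849) and Colec12 by 0.72 (adjusted p = 0.00246), and both also passed with every single mouse left out. In cystic Pkd2 Δ17/Δ17 mice Cpn1 stood at 150.5, 145.8 and 116.6 CPM, below every noncystic mouse. Colec12 stood there at 102.0, 85.9 and 85.4 CPM, above every noncystic mouse (highest value 79.2 CPM). In noncystic kidneys the deletion called 0 of the 46 in the edgeR test, and 0 with limma-trend and with DESeq2. At an unadjusted p under 0.05 there was 1 with each of these methods, where 6.31% of all genes passed in the edgeR test. Between noncystic and cystic kidneys without the motif, 11 were higher and 5 lower, where 23% of all genes passed. The interaction called 0, with 9 at an unadjusted p under 0.05, where 8.33% of all genes passed that limit. The count called was 1 with limma-trend and 2 with DESeq2.

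**Figure D4:**
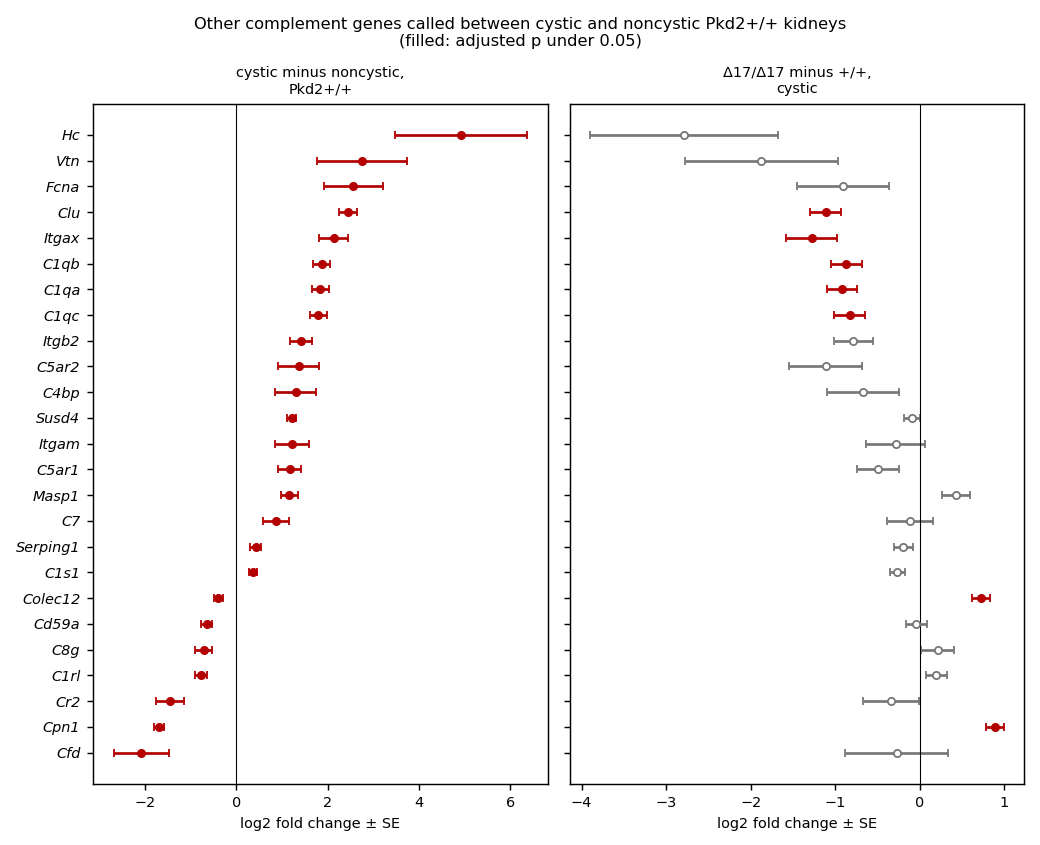
Log2 fold change with its standard error (horizontal axes, which differ in scale) of the other complement genes that passed between cystic and noncystic Pkd2+/+ kidneys (left), and of the same genes for motif deletion in cystic kidneys (right); filled points had an adjusted p under 0.05. The 25 genes on the left are 18 higher and 7 lower, and 7 of them are filled on the right: Itgax, Clu and the 3 C1q genes lower, Cpn1 and Colec12 higher.

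Genes with the most similar profile over the 12 mice were found by the root mean square difference of standardised log2 CPM, among 13692 genes with an average log2 CPM of at least 1. This is a description over 12 mice that share groups and libraries. Nearest to C3 were Ccl9 (0.323), Ccl6 (0.338) and Sulf1 (0.342), and its nearest fellow member was C4b (0.366). Ccl9 and Ccl6 encode chemokines. Nearest to C4b were Serpina3n (0.232), an acute-phase protease inhibitor, Arhgap45 (0.291) and Arfgap1 (0.296). Nearest to Cfi were Cdc42se2 (0.263), Slit3 (0.279) and Nectin4 (0.281). C3ar1 had Pcdhb22 (0.202), Il34 (0.242) and Ift43 (0.246), of which Il34 encodes a ligand of the macrophage receptor Csf1r. Cfp had Adam8 (0.404), Plekha4 (0.415) and Gas8 (0.416). The nearest gene was Pdxk (0.339) for Cfb, Apba3 (0.346) for C2, Drap1 (0.375) for C1ra and 9030407P20Rik (0.522) for Cd55, and no other member came closer than 0.811 to any of these 4.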

How the data were processed

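Per the labels and the study's methods, the authors extracted total RNA from whole kidneys, trimmed reads with Trim Galore 0.6.3, aligned them to GRCm38 with STAR 2.5.3a and deposited raw counts per gene, without normalization. All 12 columns were mapped to mice by label. Genes without a name (343) hold 0.0225% of the counts. Of 54532 identifiers, 54495 were found in GENCODE M21, the source of exons and coordinates.

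Counts were tested in R 4.3.3 with edgeR 4.0.16 (quasi-likelihood test, TMM factors, one mean per group over 12 mice, 8 residual degrees of freedom), keeping genes with an average log2 CPM of at least -3 (prior count 2). P-values were adjusted by Benjamini-Hochberg over 24642 genes, threshold 0.05. The scripts were tested on simulated data. Alternatives were limma-trend (limma 3.58.1) and DESeq2 1.42.0, other scaling and cutoffs, the compared groups alone, Xist as a covariate, and leaving out each mouse. Leaving out mice 25 and 30 together and the adipocyte list were chosen after seeing the data.

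The complement genes and all lists were chosen with earlier results of these data known. Named beyond the 9 were the 10 other complement genes with the largest called change by disease with Pkd2+/+, those called on deletion in cystic kidneys, near copies, the most abundant and the called marker genes, and the 3 genes nearest in profile. No group had duplicated libraries. A CPM of a gene with few counts is less precise.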

Additional observations from a re-analysis of the deposited data

How the results depend on the processing

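No paired analysis was possible because each mouse number occurs once. Library totals in place of TMM moved the median of all genes by 0.158 (log2) between cystic and noncystic Pkd2+/+ kidneys and by 0.151 with the motif deleted. With them 6251 genes were called higher and 2468 lower by disease with Pkd2+/+, against 4170 and 3495, and 5334 higher and 1657 lower with the motif deleted, against 3164 and 2515. The 5 members called by disease with Pkd2+/+ passed in all 21 alternatives. Without any cutoff on low counts the adjusted p of C3 by disease with Pkd2+/+ fell from 0.000239 to 1.16e-94, and the cause was not tested.

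For the deletion in cystic kidneys, 1 member was called with the compared groups only, against 3. All genes called were 1128 with DESeq2, 1639 without a cutoff, 167 with the compared groups only and 1163 without mice 25 and 30, against 549. Other complement genes called were 11 without a cutoff and 2 with the compared groups only, against 7. For the deletion in noncystic kidneys all genes called were 3 with DESeq2, 124 without a cutoff and 2 with the compared groups only, and 1 other complement gene was called without a cutoff. For the interaction, members called were 3 without a cutoff and 2 without mice 25 and 30, against 0. All genes called were 9 with limma-trend, 134 with DESeq2, 8 on library totals, 566 without a cutoff, 12 with at least 10 counts in every mouse, 13 with Xist as a covariate and 223 without mice 25 and 30, against 3. Other complement genes called were 1 with limma-trend, 2 with DESeq2, 1 on library totals, 7 without a cutoff, 1 with at least 10 counts in every mouse and 6 without mice 25 and 30. The cause of these differences was not tested.

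With 1 mouse left out, members called ran from 5 to 5 by disease with Pkd2+/+, 0 to 3 for the deletion in cystic kidneys, 0 to 0 in noncystic kidneys, 2 to 4 by disease with the motif deleted and 0 to 2 for the interaction. All genes called ran from 6480 to 7568, 118 to 861, 0 to 2, 4423 to 5969 and 0 to 61, and other complement genes from 19 to 25, 3 to 8, 0 to 0, 11 to 16 and 0 to 3, in the same order. The count of all genes for the deletion in cystic kidneys was lowest without mouse 29 and highest without mouse 25.

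Direction changed only for log2 values near 0, which were not called, and for Vtn and C3 as follows. By disease with Pkd2+/+, C1ra was at 0.0744 with limma-trend and 0.0719 on library totals, Cfb at 0.0057 without mouse 21 (-0.61 to 0.0057 over the mice left out) and Vtn at -0.59 without mouse 25 or without mice 25 and 30 (-0.59 to 3.30). For the deletion in cystic kidneys Cd55 was at 0.0140 without mice 25 and 30. For the deletion in noncystic kidneys C1ra was at 0.0061 with Xist, 0.0563 without mouse 20 and 0.0168 without mouse 23 (-0.13 to 0.0563), C3 at 0.26 without mouse 20 (-0.32 to 0.26), Cfp at -0.0486 without mouse 21 (-0.0486 to 0.24), Cfi at 0.0080 with limma-trend, 0.20 without mouse 21 and 0.0632 without mouse 24 (-0.17 to 0.20), and Cd55 at 0.0226 without mouse 22 (-0.29 to 0.0226). By disease with the motif deleted C3 was at -0.62 without mouse 30 or without mice 25 and 30 (-0.62 to 0.53), Cfp at 0.12 with limma-trend, 0.13 on library totals, 0.0102 with Xist, 0.0210 without mouse 23 and 0.0951 without mouse 28 (-0.15 to 0.0951), and Cd55 at 0.0142 with limma-trend and 0.0278 without mouse 23 (-0.28 to 0.0278). For the interaction Cfb was at -0.0825 with limma-trend, -0.0707 with Xist, and -0.42, -0.0729, -0.0582 and -0.12 without mice 21, 23, 26 and 28 (-0.42 to 0.22), and Cd55 at -0.0360, -0.0705, -0.0371, -0.0284 and -0.0480 without mice 19, 22, 24, 27 and 29 (-0.0705 to 0.24).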

Other observations

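The remaining marker lists give the tissue setting of the complement values. By disease with Pkd2+/+ 31.1% of all genes tested passed (16.9% higher and 14.2% lower), and on deletion in cystic kidneys 2.23%. Counts of a list near these shares do not set it apart from other genes. All 7 proximal tubule genes were lower in cystic than in noncystic Pkd2+/+ kidneys, and their sum was 2558 to 4068 against 8059 to 9693 CPM. On deletion in cystic kidneys Lrp2 (log2 fold change 0.64, adjusted p = 0.0308 in edgeR's test) and Cubn (0.59, adjusted p = 0.0481), which encode the endocytic receptors megalin and cubilin, were higher. Both calls were lost without mouse 26, 27, 28 or 29, and that of Cubn also without mouse 19, 23 or 24. Both were lost in a fit of the compared groups alone as well, and that of Cubn with Xist as a covariate. Of the podocyte genes 4 of 5 were lower by disease with Pkd2+/+ and Synpo was higher, and of the endothelial genes 3 of 5 were lower. Tek, an endothelial receptor, was higher on deletion in cystic kidneys (0.50, adjusted p = 0.0317). Its call was lost without mouse 25, 27, 28 or 29 and in a fit of the compared groups alone. Of the collecting duct genes 3 of 6 were higher by disease with Pkd2+/+, with Hsd11b2 at 221 to 334 CPM in noncystic and 791 to 1061 CPM in cystic mice. Of the fibroblast genes 3 of 7 were higher and 2 lower, and Col3a1 stood at 698 to 795 against 943 to 1698 CPM. Of the lymphocyte genes 2 of 8 were higher and 1 lower, and none of the 4 neutrophil genes tested passed in edgeR's test. Of the hepatocyte genes 3 of 8 were higher and 1 lower, and Alb and Apoa1 were high in mouse 25 as described. Fga and Fgb also lay above every noncystic Pkd2+/+ mouse in mice 26 and 27. Fga was at 36.1 and 25.6 CPM and Fgb at 9.74 and 5.70 CPM in these mice. Of the adipocyte genes 3 of 4 were lower and 1 higher.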
